A study of Homo sapiens with 10 samples.

Results

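Axon guidance genes encode the cues and receptors by which a moving cell or nerve fibre reads its neighbours. Their transcripts were followed here in the human prostate cancer line DU145 after knockdown of SOX4, an HMG-box transcription factor. Members were taken by symbol: ephrins (EFNA, EFNB), semaphorins (SEMA3 to SEMA7), Slits, netrins (NTN) and repulsive guidance molecules (RGM) as ligands, and Eph receptors, plexins (PLXN), neuropilins (NRP), Robo receptors, UNC5 receptors and neogenin (NEO1) as receptors. The pattern matched 44 of the 13527 rows of the deposited RNA-seq table. These were 21 ligands, 21 receptors and 2 other genes, UNC50 and UNC5CL, which match the letters of the UNC5 name but were not counted as receptors. Of 71 RefSeq protein-coding genes with such names, 42 had a row and 29 were not analysed here, among them all 3 Slit genes.

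The comparison was between groups of 3 libraries each. The control cells (shCon) carried a scrambled short hairpin RNA and the knockdown cells (shSOX4) a hairpin against SOX4, both without further treatment. The labels give neither the hairpin sequence nor whether a line is 1 clone or a pool. They also do not say that the 3 libraries of a group were grown apart, so the p-values reflect library-to-library spread that may be technical. Another 4 libraries of the series, made by ATAC-seq, were not analysed here.

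As background, semaphorins signal through plexins, and the secreted class 3 semaphorins mostly need a neuropilin as co-receptor. Ephrins sit on the cell surface, the A type through a lipid anchor and the B type through a membrane span, and bind Eph receptor tyrosine kinases on touching cells. Netrins are read by DCC, neogenin and the UNC5 receptors, Slits by Robo receptors, and RGM proteins by neogenin. First found in the nervous system, all of these families also act in epithelia, vessels and tumours, where they bear on adhesion and cell movement.

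Libraries held 31189910 to 43361609 counts. Levels are CPM, counts relative to library size after TMM scaling, and a gene is called when its Benjamini-Hochberg adjusted p over all 13527 rows is under 0.05 (edgeR quasi-likelihood test, two-sided). SOX4 itself had 12.9, 10.1 and 8.48 CPM in shCon and 4.55, 6.44 and 6.01 CPM in shSOX4, with no overlap, and a log2 fold change of -0.89 (edgeR adjusted p = 0.0111, SE 0.236), which left 53.9% of the control level. Without shCon 1 the SOX4 value was -0.71 and did not pass (adjusted p = 0.0598, edgeR). Of all rows 32.8% were called, 17% up and 15.8% down, and the groups did not overlap in 47% of rows. Intervals given with log2 fold changes are 95% intervals per gene and are not adjusted. On the second principal component (15.7% of the variance) shCon 3 and shSOX4 1 stood apart from the other 4 libraries, and results are given without them where this changes a call. The epithelial keratin genes KRT8, KRT18 and KRT19 were abundant, while KLK3 and KLK2 of the prostate luminal list had no row.

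Among ligands falls outnumbered rises. For falls the share of receptors was nearer to that of all rows, and for rises the share of ligands was nearer. Of 21 ligands 9 fell and 3 rose, and of 21 receptors 2 fell and 5 rose. Over all rows 32.8% were called, with 15.8% down and 17% up, against 42.9% of ligands down and 14.3% up, and 9.52% of receptors down and 23.8% up. The median log2 fold change was -0.47 over ligands, 0.04 over receptors and -0.01 over all rows. Groups did not overlap for 15 ligands, 12 of them lower in shSOX4, and for 7 receptors, 5 of them higher, where 23.9% of all rows were wholly lower and 23.1% wholly higher.

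Some of these rises were partly fixed by how the table was filtered. Every row of the deposited table has at least 1 CPM in 3 or more libraries. SEMA6D and ROBO1 were under 1 CPM in all 3 shCon libraries, so they could be listed only through their shSOX4 level and had to differ. NRP2 reached 1 CPM only in shCon 2 of the control libraries and PLXNB3 only in shCon 1, so their listing also depended on shSOX4 libraries. Among members with at least 1 CPM in some library of each group, which keeps NRP2 and PLXNB3, 9 of 20 ligands fell and 2 rose, and 2 of 20 receptors fell and 4 rose. Without shCon 1 or shSOX4 3 only 1 receptor fell, and without both shCon 3 and shSOX4 1, 4 did. The difference between ligands and receptors was not tested as a list.

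**Figure D1:**
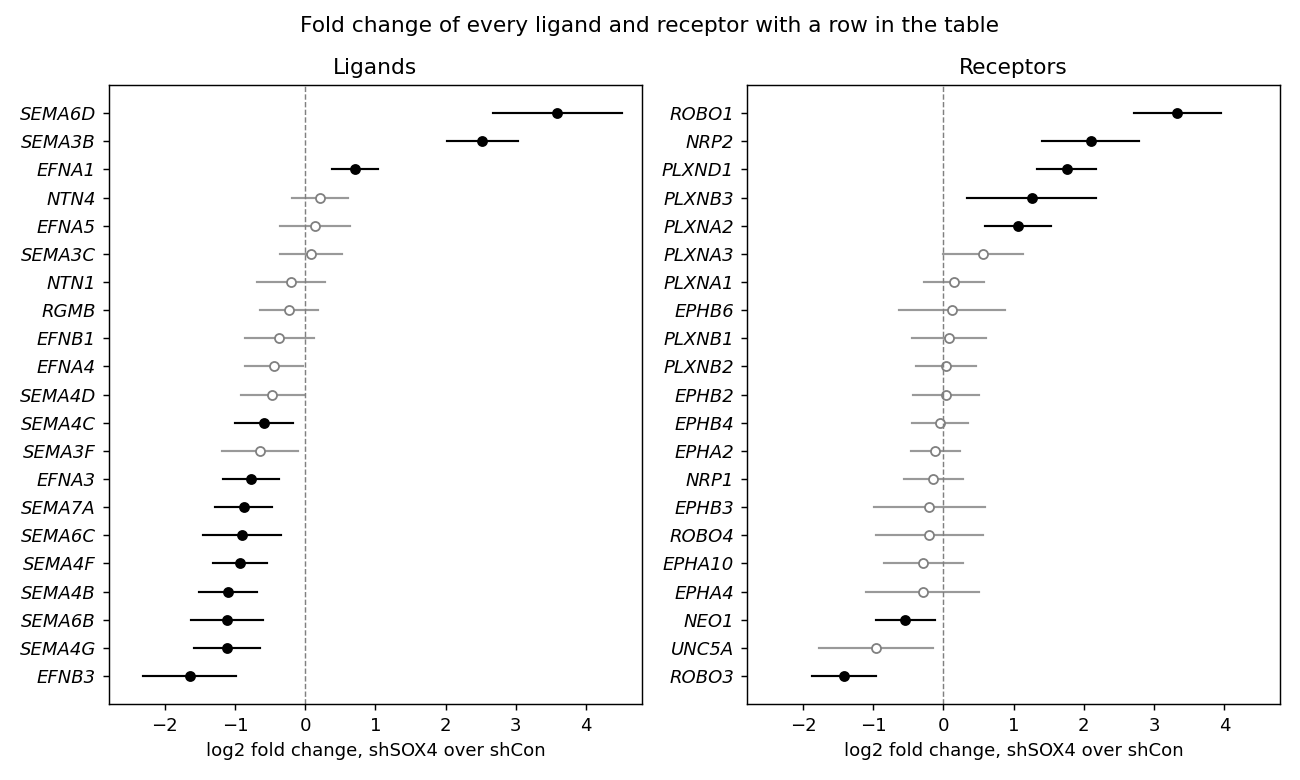
Log2 fold change of shSOX4 over shCon (horizontal axis) for the 21 ligands and the 21 receptors with a row, with the 95% interval of the edgeR fit as a line. Filled points are called genes. Among ligands 9 called points lie below 0 and 3 above, and among receptors 2 lie below and 5 above.

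Promoter sequence was read for the members that changed, since SOX proteins share a short core motif. RefSeq (GRCh38.p14) gave 1 or more gene starts for 37 of the 42 ligands and receptors, and the 250 bases before each start were searched for ACAAAG and ACAATG on both strands (CTTTGT and CATTGT as read on the other). The core stood in 21.2% of all 35116 such windows and in 14.2% of those of genes with a row in the table. It stood in 5 of 59 windows of the ligands and receptors (8.47%), which were rich in G and C (median 68.8%, against 64.8% for genes with a row and 58.0% over all windows). Of the 10 called members with a single listed start, 3 held the core, and all 3 rose: EFNA1, PLXNA2 and PLXNB3. They are shown with the core in capitals, followed by NRP2 and SEMA4F, the largest rise and the largest fall among the called single-start members without it. Each reads 5′ to 3′ on the gene's strand and ends at the base before the start.
EFNA1 (chr1:155127626-155127875, plus strand): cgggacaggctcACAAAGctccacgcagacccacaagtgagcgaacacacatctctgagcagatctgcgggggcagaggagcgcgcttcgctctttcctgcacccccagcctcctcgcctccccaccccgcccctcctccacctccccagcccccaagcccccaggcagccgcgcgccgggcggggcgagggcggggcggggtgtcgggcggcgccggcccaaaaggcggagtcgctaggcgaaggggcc
PLXNA2 (chr1:208244385-208244634, minus strand): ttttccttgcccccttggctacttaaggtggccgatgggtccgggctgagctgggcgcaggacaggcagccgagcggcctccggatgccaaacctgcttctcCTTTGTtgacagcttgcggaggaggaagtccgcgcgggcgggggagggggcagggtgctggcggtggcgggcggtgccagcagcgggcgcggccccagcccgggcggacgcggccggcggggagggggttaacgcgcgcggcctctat
PLXNB3 (chrX:153763999-153764248, plus strand): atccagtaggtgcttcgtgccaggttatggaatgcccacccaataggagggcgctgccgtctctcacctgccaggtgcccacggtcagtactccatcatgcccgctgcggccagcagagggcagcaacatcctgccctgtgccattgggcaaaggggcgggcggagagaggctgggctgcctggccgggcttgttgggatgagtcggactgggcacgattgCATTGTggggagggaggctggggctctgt
NRP2 (chr2:205682251-205682500, plus strand): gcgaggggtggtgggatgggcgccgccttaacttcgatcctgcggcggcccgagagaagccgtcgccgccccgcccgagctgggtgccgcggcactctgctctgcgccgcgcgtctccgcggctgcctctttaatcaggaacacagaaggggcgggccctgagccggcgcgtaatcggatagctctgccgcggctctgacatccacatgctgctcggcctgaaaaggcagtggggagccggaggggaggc
SEMA4F (chr2:74653997-74654246, plus strand): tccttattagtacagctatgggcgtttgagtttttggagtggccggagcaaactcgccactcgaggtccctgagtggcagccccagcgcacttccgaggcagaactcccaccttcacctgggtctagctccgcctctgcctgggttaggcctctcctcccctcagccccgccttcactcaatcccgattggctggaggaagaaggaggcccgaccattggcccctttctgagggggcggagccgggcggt
The core begins 238 bases before the start in EFNA1, 148 in PLXNA2 (as CTTTGT) and 29 in PLXNB3 (as CATTGT). None of the 15 windows of called members that fell held the core, against 3 of 15 windows of those that rose and 2 of 29 of members not called. Windows of the same gene are not independent, and SEMA3B alone gave 5 of the 15 windows of those that rose. The windows of those that fell cover 9 of 11 genes, as EFNB3 and SEMA6B had no listed start. Whether the core goes with the direction of change was not tested. A match is a run of letters and was not tested for binding.

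Semaphorins made up 12 of the 21 ligands, and 7 of the 12 fell (58.3%, against 15.8% of all rows). The class 4 semaphorins, which span the membrane and mostly signal through B-type plexins, were lower in shSOX4 for all 5 members without overlap. Over all rows 23.9% were wholly lower. Of these 5, 4 were called (80%, against 15.8% of all rows called down). SEMA4B (ENSG00000185033) was the most abundant ligand in shCon, at 92.8 of the authors' FPKM, a level per transcript length. It had 365, 303 and 459.7 CPM in shCon 1, 2 and 3 and 209, 181 and 138 CPM in shSOX4 1, 2 and 3. The highest shSOX4 library lay well under the lowest shCon library, and SEMA4B fell by 1.10 (edgeR adjusted p = 0.000952, SE 0.195), leaving 46.7%. SEMA4G, whose locus overlaps the mitochondrial ribosomal protein gene MRPL43, had 26.2, 24.1 and 32.1 CPM in shCon and 14.8, 14.3 and 9.02 CPM in shSOX4 and fell by 1.11 (edgeR adjusted p = 0.00217, SE 0.223).

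SEMA4F had 48.9, 44.3 and 58.3 CPM in shCon and 27.9, 26.1 and 25.7 CPM in shSOX4. Its 3 knockdown libraries were close together, and it fell by 0.93 (edgeR adjusted p = 0.00171, SE 0.179). SEMA4C, a ligand of PLXNB2, had 43.9, 41.8 and 48.8 CPM in shCon and 37.1, 27.4 and 24.9 CPM in shSOX4 and fell by 0.59 (edgeR adjusted p = 0.0308, SE 0.193). That call held without shSOX4 1 but not without any other single library, the adjusted p reaching 0.131 without shSOX4 3 (edgeR), and it did not hold with the replicate number as a block (adjusted p = 0.0766, edgeR). SEMA4D, the classical ligand of PLXNB1, had 19.1, 18.3 and 20.5 CPM in shCon and 15.7, 15.9 and 10.2 CPM in shSOX4 and a log2 fold change of -0.47 with a 95% interval of -0.92 to -0.02 (adjusted p = 0.0975, edgeR). Its groups did not overlap although it was not called.

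The class 6 semaphorins, also membrane-spanning and read by A-type plexins, went both ways. SEMA6B had 43.04, 42.1 and 56.0 CPM in shCon and 28.9, 22.3 and 14.2 CPM in shSOX4 and fell by 1.11 (edgeR adjusted p = 0.00352, SE 0.240), with shSOX4 3 the lowest. SEMA6C had 10.5, 8.12 and 10.9 CPM in shCon and 7.25, 4.70 and 3.84 CPM in shSOX4 and fell by 0.90 (edgeR adjusted p = 0.0168, SE 0.259). Without shSOX4 2 or shSOX4 3 the SEMA6C call was lost (adjusted p = 0.0702 and 0.0806, edgeR). SEMA6D, a ligand of PLXNA1 known from heart development, had only 8, 8 and 12 counts in shCon 1, 2 and 3 and 114, 115 and 67 counts in shSOX4 1, 2 and 3. On the CPM scale these were 0.175, 0.215 and 0.350 CPM in shCon and 3.34, 3.56 and 1.99 CPM in shSOX4, with a log2 fold change of 3.59 (edgeR adjusted p = 3.45e-05, SE 0.427). SEMA6D was under 1 CPM in all shCon libraries, so it could be listed only through its shSOX4 level and had to differ. SEMA7A, the only class 7 semaphorin, is held by a lipid anchor and is read by PLXNC1 and by integrins with the ITGB1 chain. It had 64.8, 51.3 and 61.9 CPM in shCon and 38.8, 29.5 and 28.6 CPM in shSOX4 and fell by 0.88 (edgeR adjusted p = 0.00344, SE 0.189).

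Among the secreted class 3 semaphorins, SEMA3B rose while SEMA3C and SEMA3F were not called. SEMA3B (ENSG00000012171), studied as a candidate tumour suppressor in lung cancer, had 9.11, 6.05 and 8.83 CPM in shCon 1, 2 and 3 and 59.0, 38.9 and 40.2 CPM in shSOX4 1, 2 and 3. The groups were far apart, and the log2 fold change was 2.52 (edgeR adjusted p = 3e-06, SE 0.234), or 5.75-fold. An antisense gene, SEMA3B-AS1, overlaps it in RefSeq, and since the strand setting of the counting is not given, reads of the pair cannot be told apart. The same holds for SEMA3F, RGMB and EPHA2, which have an antisense gene, and for SEMA4D, SEMA4G and EPHB4, which overlap SECISBP2, MRPL43 and SLC12A9. SEMA3C, which can act through both neuropilins and PLXND1, had 24.9, 21.9 and 16.2 CPM in shCon and 19.6, 25.8 and 21.3 CPM in shSOX4, with overlap, and a log2 fold change of 0.08 (interval -0.36 to 0.53). SEMA3F, the classical ligand of NRP2, had 12.9, 13.6 and 19.9 CPM in shCon and 11.5, 11.4 and 6.67 CPM in shSOX4. Its groups did not overlap, and its value of -0.65 just missed the threshold (adjusted p = 0.0615, edgeR). It passed without shSOX4 1 (adjusted p = 0.0260, edgeR), by DESeq2 (adjusted p = 0.0426) and in the authors' deposited table (log2 -0.59, adjusted p = 0.0427). The DESeq2 and deposited adjusted p-values nearly coincide and come from the same libraries, so they are not separate support.

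**Figure D2:**
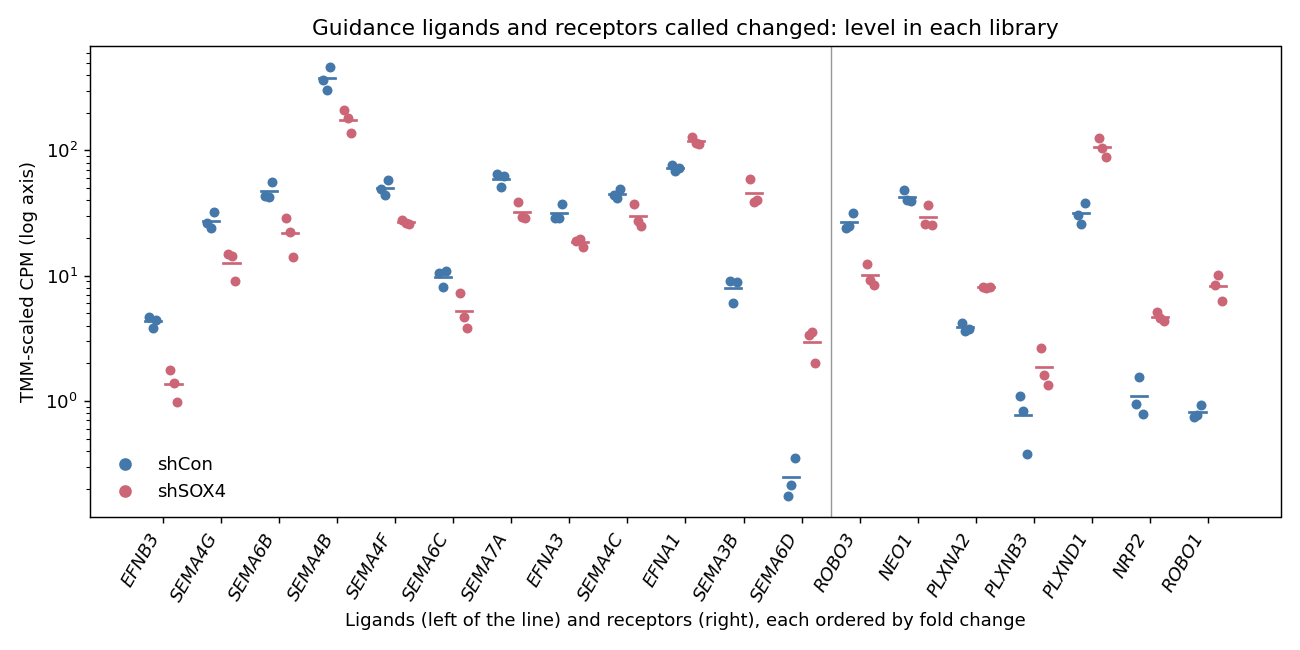
TMM-scaled CPM (log axis) of the 12 called ligands and 7 called receptors in each library, with bars at the mean of 3 libraries. In all 19 genes the shCon and shSOX4 points do not overlap, and SEMA4B is the most abundant of them.

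Ephrins divided by member. EFNA1, the main ligand of the receptor EPHA2, had 76.2, 68.7 and 72.7 CPM in shCon and 128, 115 and 113 CPM in shSOX4, and rose by 0.71 (edgeR adjusted p = 0.00385, SE 0.156), or 1.63-fold. EFNA3 had 28.9, 29.0 and 37.1 CPM in shCon and 19.0, 19.8 and 17.0 CPM in shSOX4 and fell by 0.77 (edgeR adjusted p = 0.00714, SE 0.187). EFNA4, its neighbour in the genome, had 21.1, 19.6 and 26.4 CPM in shCon and 17.8, 15.2 and 16.3 CPM in shSOX4 with no overlap and a value of -0.44 that did not pass (interval -0.85 to -0.03, adjusted p = 0.0887, edgeR). The readthrough gene EFNA4-EFNA3 overlaps both, so the division of reads between EFNA3 and EFNA4 is uncertain. EFNA5 had a log2 fold change of 0.14 (interval -0.35 to 0.64), with overlap.

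EFNB3, a B-type ephrin known as a midline barrier to growing axons, fell most among all ligands. It had 4.71, 3.79 and 4.46 CPM in shCon 1, 2 and 3 and 1.76, 1.39 and 0.982 CPM in shSOX4 1, 2 and 3, and the fall was 1.65 (edgeR adjusted p = 0.00144, SE 0.310), leaving 32.0%. EFNB1, the other B-type ephrin with a row, had 13.6, 11.5 and 17.3 CPM in shCon and 13.0, 8.42 and 11.4 CPM in shSOX4 and a value of -0.37 (interval -0.85 to 0.12, adjusted p = 0.228, edgeR). The groups overlapped for EFNB1.

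Netrins and RGMB gave no call. NTN1, the founding netrin, had 13.5, 11.6 and 14.7 CPM in shCon and 14.9, 10.8 and 8.72 CPM in shSOX4 (log2 -0.21, interval -0.69 to 0.28). NTN4, a basement membrane netrin that binds laminin, had 17.0, 18.1 and 16.0 CPM in shCon and 16.9, 21.0 and 21.1 CPM in shSOX4 (log2 0.21, interval -0.19 to 0.61). RGMB, a co-receptor for bone morphogenetic proteins as well as a neogenin ligand, had 18.7, 18.8 and 14.8 CPM in shCon and 13.4, 14.8 and 16.3 CPM in shSOX4 (log2 -0.24, interval -0.65 to 0.18). The groups overlapped for all 3, and each interval includes 0.

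Plexins, the semaphorin receptors, had a positive fold change for all 7 members, where 6637 of all 13527 rows were positive. Of the 7, 3 rose (42.9%, against 17% of all rows). PLXNB1 and PLXNB2 were near 0 and turned negative under some alternatives (lowest log2 -0.09 and -0.11), so a shared direction of the family is not secure. PLXND1 (ENSG00000004399), the receptor of SEMA3E and a patterning receptor of blood vessels, had 30.7, 26.1 and 37.9 CPM in shCon 1, 2 and 3 and 126, 105 and 88.8 CPM in shSOX4 1, 2 and 3. No library of one group came near those of the other, and PLXND1 rose by 1.76 (edgeR adjusted p = 1.98e-05, SE 0.197), or 3.38-fold. PLXNA2, a receptor for class 3 and class 6 semaphorins, had 4.23, 3.63 and 3.76 CPM in shCon and 8.15, 8.02 and 8.16 CPM in shSOX4. The 3 knockdown values were nearly equal, and the rise was 1.06 (edgeR adjusted p = 0.00264, SE 0.220). PLXNB3, a receptor of SEMA5A, had a low level throughout, 1.10, 0.833 and 0.379 CPM in shCon and 2.64, 1.61 and 1.34 CPM in shSOX4. It rose by 1.26 (edgeR adjusted p = 0.0374, SE 0.431), but lost its call when shCon 2, shCon 3, shSOX4 1 or shSOX4 2 was left out, under total-count scaling (adjusted p = 0.0590, edgeR) and with both shCon 3 and shSOX4 1 dropped, at a value of 0.61 (adjusted p = 0.284, edgeR). Only shCon 1 of the control libraries reached 1 CPM, so the listing of PLXNB3 depended on shSOX4 libraries. An antisense gene, PLXNB3-AS1, overlaps PLXNB3.

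The most abundant plexin, PLXNB2, was not called. It had 152, 130.2 and 195 CPM in shCon and 198, 169 and 124 CPM in shSOX4, with overlap, and a log2 fold change of 0.04 with an interval of -0.39 to 0.47. PLXNA1 had 44.6, 39.4 and 59.6 CPM in shCon and 62.7, 51.8 and 45.3 CPM in shSOX4 (log2 0.16, interval -0.27 to 0.58), and PLXNB1, the SEMA4D receptor, had 6.33, 7.90 and 10.7 CPM in shCon and 10.9, 8.14 and 7.32 CPM in shSOX4 (log2 0.08, interval -0.45 to 0.60). PLXNA3 had 7.08, 5.08 and 8.98 CPM in shCon and 11.1, 13.0 and 7.20 CPM in shSOX4 and a value of 0.57 (adjusted p = 0.116, edgeR). It passed without shCon 3 (log2 0.78, adjusted p = 0.0425, edgeR) and without both shCon 3 and shSOX4 1 (log2 0.73, adjusted p = 0.0392, edgeR).

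The neuropilins parted. NRP2, the co-receptor used by SEMA3B and SEMA3F and by vascular endothelial growth factor C, had 0.942, 1.56 and 0.787 CPM in shCon 1, 2 and 3 and 5.13, 4.61 and 4.35 CPM in shSOX4 1, 2 and 3. The lowest knockdown library was well above the highest control library, shCon 2, and NRP2 rose by 2.097 (edgeR adjusted p = 0.000353, SE 0.325), or 4.28-fold. Only shCon 2 of the control libraries reached 1 CPM, so the listing of NRP2 depended on shSOX4 libraries. NRP1, the more abundant of the pair per length in every library, had 30.8, 27.1 and 24.0 CPM in shCon and 24.0, 29.3 and 20.9 CPM in shSOX4, with overlap, and a log2 fold change of -0.14 (interval -0.56 to 0.27).

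Robo receptors showed opposite changes. ROBO1 (ENSG00000169855), the general Slit receptor, had 34, 29 and 32 counts in shCon 1, 2 and 3 and 285, 325 and 212 counts in shSOX4 1, 2 and 3. In CPM these were 0.745, 0.779 and 0.933 CPM in shCon and 8.36, 10.1 and 6.31 CPM in shSOX4, a rise of 3.33 (edgeR adjusted p = 1.93e-06, SE 0.291), or 10.1-fold. ROBO1 was under 1 CPM in all shCon libraries, so it could be listed only through its shSOX4 level and had to differ. ROBO3 (ENSG00000154134), a divergent Robo known for letting commissural axons cross the midline, had 24.1, 25.0 and 31.5 CPM in shCon 1, 2 and 3 and 12.4, 9.22 and 8.48 CPM in shSOX4 1, 2 and 3. It fell by 1.42 (edgeR adjusted p = 0.000256, SE 0.212), leaving 37.4%, and shCon 3 was its highest library. ROBO4, the vascular Robo, was low, with 1.80, 2.02 and 3.21 CPM in shCon and 2.64, 2.105 and 1.34 CPM in shSOX4 and overlap (log2 -0.20, interval -0.96 to 0.56).

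The fibroblast and endothelial markers with a row were higher in the libraries where NRP2, ROBO1 and PLXND1 were. Of 8 fibroblast markers, COL1A1, LUM and PDGFRB had a row and all 3 rose, with a summed level of 1.69 to 2.48 CPM in shCon and 9.55 to 16.0 CPM in shSOX4, while COL1A2, COL3A1, DCN, PDGFRA and THY1 had none. Of 6 endothelial markers only CDH5 had a row, with 0.942, 0.699 and 0.525 CPM in shCon and 6.31, 6.62 and 4.70 CPM in shSOX4, and it rose (log2 3.01, adjusted p = 1.23e-05, edgeR). PECAM1, VWF, KDR, TEK and EMCN had no row. CDH5 and LUM were under 1 CPM in all shCon libraries and so could be listed only through shSOX4 and had to differ. PDGFRB reached 1 CPM only in shCon 2 of the control libraries, so its listing also depended on shSOX4 libraries. In the epithelial list KRT8 (log2 1.33) and KRT18 (1.03) rose and CDH1 (-1.28) and EPCAM (-0.83) fell. Among prostate luminal markers HOXB13 (log2 2.71) rose, although it too was under 1 CPM in all shCon libraries and had to differ. Of 10 neuronal markers TUBB3 and NEFL had a row and neither was called, of 5 glial markers GFAP (-1.31) fell, and of 6 leukocyte markers only CD14 had a row and was not called. The part of these shifts in the guidance genes was not tested. In bulk libraries a change in the number of cells of a type and a change in RNA per cell cannot be told apart.

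Eph receptors, the largest receptor tyrosine kinase family, gave no call in 7 members. EPHA2 was the most abundant receptor in shCon at 58.6 of the authors' FPKM, and had 239, 219.5 and 293 CPM in shCon and 256, 219 and 219 CPM in shSOX4. Its log2 fold change was -0.12, with an interval of -0.47 to 0.23, beside 0.38 to 1.04 for its ligand EFNA1. EPHB4, a receptor of EFNB2 known from veins, had 115, 102 and 153 CPM in shCon and 138, 117 and 101 CPM in shSOX4 (log2 -0.05, interval -0.45 to 0.35). Groups overlapped for both, and shCon 3 was the highest library of each.

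The other Eph receptors were low. EPHA10, which has no active kinase, had 11.7, 14.5 and 8.07 CPM in shCon and 12.6, 8.23 and 7.20 CPM in shSOX4 and a log2 fold change of -0.29 (adjusted p = 0.423, edgeR). Without both shCon 3 and shSOX4 1 it passed, at -0.76 (adjusted p = 0.00736, edgeR). EPHB2 had 6.70, 5.86 and 6.01 CPM in shCon and 5.51, 6.59 and 6.94 CPM in shSOX4 (log2 0.04, interval -0.43 to 0.51). EPHA4, EPHB3 and EPHB6, the last also without an active kinase, averaged 1.51 ± 0.399 to 1.24 ± 0.456 CPM, 2.75 ± 1.27 to 2.39 ± 0.690 CPM and 2.09 ± 0.737 to 2.27 ± 0.675 CPM (SD, n = 3 each). Their intervals were wide, at -1.10 to 0.51, -0.99 to 0.59 and -0.63 to 0.88, so changes within them were not detectable at these counts.

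Of the receptors for netrin and RGM with a row, NEO1 fell and UNC5A was not called. NEO1, neogenin, had 48.5, 40.0 and 39.8 CPM in shCon and 25.8, 36.8 and 25.4 CPM in shSOX4 and fell by 0.54 (edgeR adjusted p = 0.0471, SE 0.197), close to the threshold. The call was lost without shCon 1, shCon 2, shSOX4 1 or shSOX4 3, under total-count scaling (adjusted p = 0.0739, edgeR) and with the replicate number as a block (adjusted p = 0.107, edgeR). UNC5A, a netrin receptor that can trigger cell death when unbound, had 5.54, 3.44 and 7.38 CPM in shCon and 4.49, 2.45 and 1.46 CPM in shSOX4, with overlap through shSOX4 1 and shCon 2. The HK3 gene overlaps it. Its log2 fold change of -0.96 did not pass (adjusted p = 0.0654, edgeR), but passed without shSOX4 1 (log2 -1.47, adjusted p = 0.00231, edgeR), without shCon 2 (adjusted p = 0.0238, edgeR), by DESeq2 (adjusted p = 0.0400), with both libraries that stood apart dropped (adjusted p = 0.0133, edgeR) and with the replicate number as a block (adjusted p = 0.0277, edgeR).

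**Figure D3:**
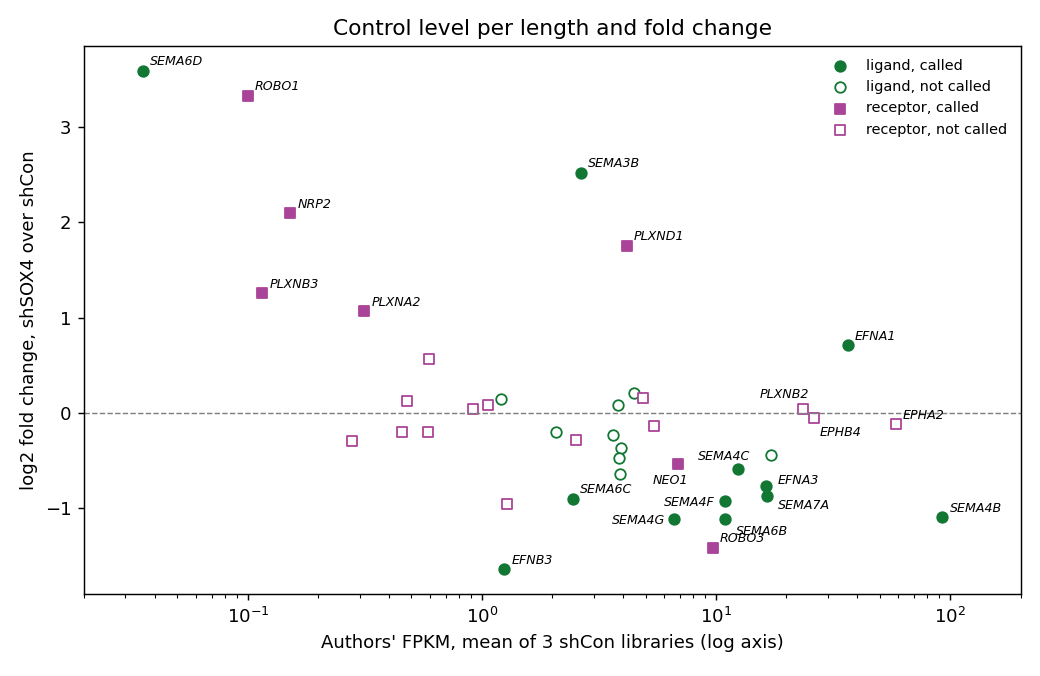
Mean of the authors' FPKM over the 3 shCon libraries (log axis) against the log2 fold change of shSOX4 over shCon for 21 ligands (circles) and 21 receptors (squares), filled where called. The 3 most abundant receptors, EPHA2, EPHB4 and PLXNB2, lie near 0. The horizontal axis is also the denominator of the fold change, so genes that rose lie further left than their mean over all 6 libraries.

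The members were also divided by their mean FPKM over all 6 libraries, at a level of 5 FPKM chosen after the values were seen. Of 10 ligands with at least 5 FPKM, 6 fell and 2 rose, SEMA3B and EFNA1, and of the 11 below that level 3 fell and 1 rose. Of 8 receptors with at least 5 FPKM, ROBO3 and NEO1 fell and PLXND1 rose, and of the 13 below that level 4 rose and none fell at an adjusted p under 0.05. Of the genes that rose below that level, SEMA6D, ROBO1, NRP2 and PLXNB3 depended on shSOX4 libraries to be listed.

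Summed over each family, the authors' FPKM shifted in composition. The 5 class 4 semaphorins summed to 129, 109.6 and 142 FPKM in shCon and 72.5, 67.7 and 49.2 FPKM in shSOX4, while the 3 class 3 semaphorins summed to 11.1, 9.55 and 10.3 FPKM in shCon and 25.8, 21.3 and 18.2 FPKM in shSOX4. SEMA3B made up 21.8 to 28.3% of the class 3 sum in shCon libraries and 62.2 to 75.7% in shSOX4 libraries. SEMA4B went from 53.1 to 57.9% of all semaphorin FPKM in shCon to 42.2 to 45.0% in shSOX4. PLXND1 made up 11.8 to 12.2% of plexin FPKM in shCon and 31 to 31.7% in shSOX4. EFNA1 went from 43.6 to 50.5% of ephrin FPKM to 68.4 to 68.6%.

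The receptor sums show where the total did not move with its parts. All 21 receptors summed to 148 ± 13.95 FPKM (SD, n = 3) in shCon and 148 ± 18.4 FPKM in shSOX4, and the 21 ligands to 254 ± 21.7 and 198 ± 24.8 FPKM. SEMA4B alone went from 92.8 ± 14.5 to 43.9 ± 9.25 FPKM, so the lower ligand sum rests largely on this gene and does not describe the ligands as a group. Eph receptors summed to 89.6 ± 9.36 and 83.9 ± 8.52 FPKM, with EPHA2 at a mean of 65.4% of the sum in shCon and 65.0% in shSOX4. ROBO3 held 93.1 to 95.5% of the Robo sum in shCon and 62.0 to 78.3% in shSOX4, and ROBO1 went from 0.908 to 1.06% to 16.3 to 28.8%. NRP2 went from 1.87 to 3.97% of neuropilin FPKM to 10.1 to 19.9%, so NRP1 stayed the main neuropilin transcript. The listing of ROBO1 and NRP2 depended on shSOX4 libraries, which bears on their shares too. The ratio of counts to FPKM varied 2.20-fold over the libraries for ROBO3 and 1.69-fold for NRP2, so the shares of these genes are less certain than their counts.

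**Figure D4:**
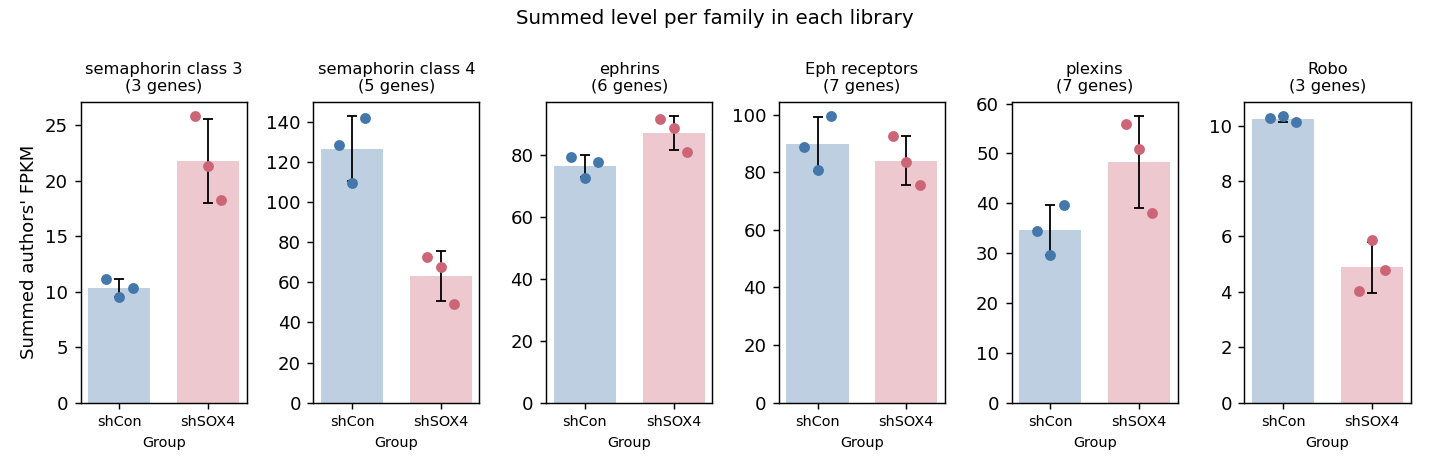
Sum of the authors' FPKM over the members of 6 families in each library (points), with the mean of 3 libraries as a bar from 0 and the SD as a line. The class 4 semaphorin and Robo sums are lower in all shSOX4 libraries, the class 3 semaphorin sums are higher, and the Eph receptor sums overlap.

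Inside the cell, guidance receptors act through adaptors, small GTPase regulators and kinases. Of 74 such partners on 3 lists 65 had a row, of which 9 rose and 14 fell (13.8% and 21.5%, against 17% and 15.8% of all rows). The median log2 fold change was -0.19. The other 42 of 65 were not called.

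Partners of Eph receptors and ephrins had 4 of 19 up and 5 down (median -0.36). VAV3, an exchange factor recruited by active Eph receptors, had 0.416, 0.564 and 0.321 CPM in shCon and 4.58, 7.27 and 6.995 CPM in shSOX4 and rose by 3.84 (edgeR adjusted p = 2.29e-06, SE 0.346). VAV3 was under 1 CPM in shCon and so had to differ. FYN, a Src-family kinase, had 9.20, 7.90 and 6.06 CPM in shCon and 22.9, 24.0 and 21.9 CPM in shSOX4 and rose by 1.57 (edgeR adjusted p = 9.17e-05, SE 0.207). INPPL1, the lipid phosphatase SHIP2 that binds EPHA2, had 40.8, 31.4 and 47.8 CPM in shCon and 118, 105 and 83.9 CPM in shSOX4 and rose by 1.35 (edgeR adjusted p = 0.000229, SE 0.199). TIAM1, an exchange factor for Rac, had 10.8, 8.76 and 6.53 CPM in shCon and 2.49, 3.74 and 2.77 CPM in shSOX4 and fell by 1.54 (edgeR adjusted p = 0.000804, SE 0.266).

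Partners of plexins and neuropilins had 3 of 25 up and 4 down (median -0.17). L1CAM, an adhesion molecule that joins NRP1 in the semaphorin receptor, averaged 5.29 ± 0.907 to 92.1 ± 10.3 CPM (SD, n = 3 each) and rose by 4.12 (edgeR adjusted p = 2.05e-08, SE 0.210). DPYSL3, a collapsin response mediator protein, had 91.1, 78.7 and 79.4 CPM in shCon and 38.3, 44.1 and 47.9 CPM in shSOX4 and fell by 0.94 (edgeR adjusted p = 0.00111, SE 0.170). MICAL2, a monooxygenase of the MICAL family that takes actin apart, had 35.2, 41.9 and 36.6 CPM in shCon and 16.1, 21.8 and 20.2 CPM in shSOX4 and fell by 0.97 (edgeR adjusted p = 0.00176, SE 0.189). RND2, a small GTPase, had 28.5, 35.4 and 37.4 CPM in shCon and 24.8, 17.8 and 12.6 CPM in shSOX4 and fell by 0.88 (edgeR adjusted p = 0.0119, SE 0.236), a call lost without shSOX4 2 or shSOX4 3 (adjusted p = 0.0508 and 0.0593, edgeR).

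Partners of netrin, Slit and RGM receptors had 2 of 21 up and 5 down (median -0.19). CDC42, a small GTPase turned off by Slit-Robo GAP proteins, had 73.4, 79.1 and 53.8 CPM in shCon and 125, 200.1 and 158 CPM in shSOX4 and rose by 1.23 (edgeR adjusted p = 0.000575, SE 0.203). TRIM9, a ubiquitin ligase that binds the netrin receptor DCC, had 2.39, 2.096 and 1.57 CPM in shCon and 0.411, 0.433 and 0.685 CPM in shSOX4 and fell by 1.98 (edgeR adjusted p = 0.00178, SE 0.385). TRIM9 and FLRT1, another of the 5 that fell, were under 1 CPM in all shSOX4 libraries, so they were listed only through shCon and had to differ. SDC1, a heparan sulphate proteoglycan, had 242, 231 and 319 CPM in shCon and 189, 158 and 167 CPM in shSOX4 and fell by 0.62 (edgeR adjusted p = 0.0124, SE 0.169), a call lost without shSOX4 2 (adjusted p = 0.0723, edgeR). DAPK1, a death kinase linked to UNC5 receptors, had 20.9, 17.4 and 13.99 CPM in shCon and 26.0, 28.8 and 32.0 CPM in shSOX4 and rose by 0.73 (edgeR adjusted p = 0.0130, SE 0.200), a call lost without shSOX4 2 or shSOX4 3 (adjusted p = 0.0506 and 0.0569, edgeR). DCC itself had no row and was not analysed here.

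Both other matches changed. UNC50 had 12.1, 13.0 and 9.79 CPM in shCon and 15.3, 20.6 and 21.3 CPM in shSOX4 and rose by 0.71 (edgeR adjusted p = 0.0187, SE 0.208), a call lost without shSOX4 2 or shSOX4 3 (adjusted p = 0.0840 and 0.0765, edgeR). UNC5CL had 1.45, 1.72 and 1.69 CPM in shCon and 0.616, 0.526 and 0.417 CPM in shSOX4 and fell by 1.63 (edgeR adjusted p = 0.00494, SE 0.373), and was under 1 CPM in all shSOX4 libraries, so it could be listed only through its shCon level. Neither is a guidance receptor, and they are counted only where all 44 matches are given, of which 9 rose and 12 fell.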

How the data were processed

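Counts, FPKM, an adjusted p-value and a log2 fold change per gene were read from one table that the authors deposited. Counts were deposited as whole numbers without normalization. FPKM, a level per transcript length and sequencing depth, is named as such in the headers and was computed by the authors. The authors' adjusted p-value and the authors' log2 fold change come with no named tool. Tools named, with no role, in the submitters' processing notes include STAR, HISAT2 and the build hg19. The labels' protocols describe 2 RNA library preparations without saying which was used. No source used here gives the counting program, strand setting or low-count filter. NC and SH columns were taken to be shCon and shSOX4, which rests on those letters and on the table's name, which pairs the groups.

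Tests ran on all 13527 rows with edgeR 4.0.16 in R 4.3.3 (TMM, filterByExpr, quasi-likelihood F test, group as the only term), checked on simulated data. Intervals are 95%. Alternatives used limma 3.58.1, DESeq2 1.42.0, other scaling and filters, log2(FPKM + 1) for rows averaging 1 FPKM or more, the replicate number as a block, rows without newGene loci, and left-out libraries. The members and lists were chosen with earlier results of these data known. Full values are given for called members averaging 1 CPM or more, and for the 4 partners per list with the smallest adjusted p. One marker of the prostate luminal list is not reported here.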

Additional observations from a re-analysis of the deposited data

How the results depend on the processing

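No called value of the 44 members changed sign under any alternative. Of the 21 called members 16 kept the call under each of the 16 alternatives that tested them, and 5 (NEO1, PLXNB3, SEMA4C, SEMA6C and UNC50) lost it in at least 1. Counts of members called up and down, for ligands and for receptors, stayed within 1.5 times the values given, with these exceptions. With limma on log2(FPKM + 1), which tested 30 members and only 10 receptors, 4 members rose, 1 receptor rose and 1 fell. Under total-count scaling 1 receptor fell, and without both shCon 3 and shSOX4 1, 4 fell. Leaving out 1 library gave 1 to 2 receptors down, the lower count without shCon 1 or shSOX4 3. For SOX4 the same fits gave log2 fold changes of -1.02 to -0.71, and only without shCon 1 did it not pass (adjusted p = 0.0598, edgeR). Same-numbered libraries did not deviate together (correlations over genes of -0.29, 0.16 and -0.29), so the numbers were not taken as pairs. With the replicate number as a block 9 members rose and 11 fell, against 9 and 12. Low counts limit ROBO4, EPHA4, EPHB3, EPHB6 and PLXNB3. In shCon they also limit SEMA6D (8, 8 and 12 counts), ROBO1 (34, 29 and 32) and NRP2 (43, 58 and 27), and in shSOX4 UNC5CL (21, 17 and 14).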

Other observations

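Counts and the authors' FPKM of the same gene differ by 1 factor per library if a gene has 1 length. Over the 6 libraries this ratio ranged more than 1.5-fold in 5 of the 44 members (NRP2, EPHA10, EPHA4, ROBO3 and EPHB2). Among members with at least 50 counts in each library it did so in 3 of 35 (8.57%), beside 5.38% of the 11552 such rows of the table. EPHB2 had the widest range, 3.03-fold, through shCon 2, where its FPKM was 1.56 against 0.691 and 0.481 in shCon 1 and 3, while its counts gave 5.86 CPM against 6.70 and 6.01. ROBO3 had a 2.20-fold range, with shSOX4 1 the lowest. EPHA10 had a 1.96-fold range through shCon 3. Sums and shares of FPKM that hold these genes carry that uncertainty.

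In the 2 libraries that stand apart, ligands and receptors ran above the other libraries of the same group in the median, although some members ran below. The median difference on the log2 scale was 0.23 over ligands and 0.36 over receptors for shCon 3, and 0.37 over ligands and 0.34 over receptors for shSOX4 1. One of the 2 lies in each group. The same median over all rows was not computed, so no trait of guidance genes in particular can be read from these values.

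The authors' deposited table gives smaller changes than the counts for the genes with few control counts. Its log2 fold change is 2.86 for SEMA6D against 3.59, 3.01 for ROBO1 against 3.33 and 1.86 for NRP2 against 2.097, while for SEMA4B it is -1.04 against -1.10.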
